A study of Mus musculus with 4 samples.

Results

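The regions described here are the short islands of trimethylated lysine 9 on histone H3 (H3K9me3), a chromatin mark, in mouse CD8+ T cells. An island is a stretch of neighbouring windows enriched for ChIP reads, joined into 1 region by the authors' caller. The members were chosen by island length: those on chromosomes 1 to 19 that spanned less than 2000 bp. The deposited lists hold 2877 such islands among 67529 autosomal islands: 83 of 19984 on day 0 and 2794 of 47545 on day 3. Length itself comes out of the signal, so every value below that moves with length is a description without a test.

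The study mapped the mark by native ChIP-seq, in which chromatin is cut with micrococcal nuclease and not cross-linked, in wild-type C57BL/6 mice. Day 0 stands for naive CD8+ T cells, and day 3 for CD8+ T cells after culture with IL-2 and antibodies, anti-CD3 and anti-CD28, which together mimic antigen stimulation. Each day has 1 ChIP library and 1 input library, and the inputs were not analysed here. Culture, stimulation and time differ together between the days and cannot be told apart, and no difference between days has a replicate check.

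H3K9me3 is written by the enzymes Setdb1, Suv39h1 and Suv39h2 and read by heterochromatin protein 1, which compacts the marked chromatin. Zinc finger proteins with a KRAB domain bind particular DNA sequences and recruit Trim28 and Setdb1 to them, and much of the mark in mouse cells lies over transposable elements and over clusters of zinc finger genes. Broad domains of the mark cover gene-poor regions, while narrow sites can mark single repeats or single promoters. In T cells the mark takes part in holding genes of other lineages silent.

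Few short islands reached a gene start, and olfactory receptor genes were among those they reached on day 3. A promoter window, here 250 bases before to 50 bases after a RefSeq start, was touched by 0 of 83 short islands on day 0 (95% Wilson interval 0 to 4.42%), where 3.44% of all islands touched one. On day 3 it was touched by 21 of 2794 short islands (0.752%, interval 0.492 to 1.15), against 906 of 44751 islands of 2000 bp or more (2.02%) and 1.95% of all islands. A longer island meets a window more easily, and the shares are not corrected for that. These 21 islands touched 23 windows, of which 7 (30.4%) belonged to olfactory receptor genes, whose products detect odours in the nose. Olfactory receptor windows made up 3.00% of all autosomal windows and 14.8% of those touched by longer day 3 islands. Long noncoding RNA genes had 10 of the 23 windows (43.5%), against 36.0% of all windows and 41.9% of those in longer islands. Some of these genes had overlapping windows in the same island, so the 23 windows are not all separate starts. The 250 bases before the start are printed for the 8 protein-coding genes that had at least 200 of these bases inside a short day 3 island. This limit was chosen after the values were seen, and capitals mark the bases inside the island (RefSeq sequence, GRCm38.p6, 5′ to 3′ on the gene's strand).
Olfr607, minus strand, chr7:103464127-103464376: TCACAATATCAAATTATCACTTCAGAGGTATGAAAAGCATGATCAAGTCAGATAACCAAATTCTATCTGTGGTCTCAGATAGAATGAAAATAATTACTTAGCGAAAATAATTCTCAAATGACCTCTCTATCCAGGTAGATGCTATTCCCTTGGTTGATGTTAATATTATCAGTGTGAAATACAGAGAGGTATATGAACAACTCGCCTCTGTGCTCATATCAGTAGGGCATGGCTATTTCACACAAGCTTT
Olfr635, plus strand, chr7:103978926-103979175: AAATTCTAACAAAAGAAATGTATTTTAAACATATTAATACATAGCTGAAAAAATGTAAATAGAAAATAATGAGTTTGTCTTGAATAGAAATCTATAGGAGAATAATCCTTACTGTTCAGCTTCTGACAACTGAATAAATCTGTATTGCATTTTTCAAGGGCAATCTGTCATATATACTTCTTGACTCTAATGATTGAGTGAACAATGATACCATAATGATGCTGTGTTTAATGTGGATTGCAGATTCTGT
Olfr668, minus strand, chr7:104925763-104926012: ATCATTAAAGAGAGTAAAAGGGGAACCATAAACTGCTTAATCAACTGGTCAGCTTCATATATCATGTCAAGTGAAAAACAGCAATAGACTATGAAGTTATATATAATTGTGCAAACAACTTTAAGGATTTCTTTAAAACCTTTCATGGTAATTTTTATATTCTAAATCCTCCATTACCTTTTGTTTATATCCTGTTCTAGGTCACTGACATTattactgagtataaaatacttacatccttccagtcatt
Olfr1402, minus strand, chr3:97411180-97411429: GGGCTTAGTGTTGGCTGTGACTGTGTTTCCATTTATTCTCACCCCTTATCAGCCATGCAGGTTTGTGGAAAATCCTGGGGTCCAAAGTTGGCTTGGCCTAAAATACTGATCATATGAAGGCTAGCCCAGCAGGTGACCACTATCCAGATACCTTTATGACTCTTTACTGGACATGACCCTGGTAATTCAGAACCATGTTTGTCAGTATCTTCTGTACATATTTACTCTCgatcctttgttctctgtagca
Esp23, minus strand, chr17:39077038-39077287: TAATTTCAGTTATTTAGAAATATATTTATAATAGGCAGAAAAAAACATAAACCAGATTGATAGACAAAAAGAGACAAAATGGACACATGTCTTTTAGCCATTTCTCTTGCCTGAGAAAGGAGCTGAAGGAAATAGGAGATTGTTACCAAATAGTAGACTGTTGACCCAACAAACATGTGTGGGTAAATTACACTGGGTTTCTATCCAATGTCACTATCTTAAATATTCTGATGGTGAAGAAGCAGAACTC
Skint9, minus strand, chr4:112433986-112434235: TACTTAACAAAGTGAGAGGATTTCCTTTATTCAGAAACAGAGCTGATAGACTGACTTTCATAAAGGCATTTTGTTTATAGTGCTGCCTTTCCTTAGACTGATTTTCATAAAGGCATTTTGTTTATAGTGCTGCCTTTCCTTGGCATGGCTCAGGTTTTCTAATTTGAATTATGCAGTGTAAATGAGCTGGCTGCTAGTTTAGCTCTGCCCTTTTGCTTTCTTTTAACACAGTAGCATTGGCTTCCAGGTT
Rsbn1, plus strand, chr3:103913870-103914119: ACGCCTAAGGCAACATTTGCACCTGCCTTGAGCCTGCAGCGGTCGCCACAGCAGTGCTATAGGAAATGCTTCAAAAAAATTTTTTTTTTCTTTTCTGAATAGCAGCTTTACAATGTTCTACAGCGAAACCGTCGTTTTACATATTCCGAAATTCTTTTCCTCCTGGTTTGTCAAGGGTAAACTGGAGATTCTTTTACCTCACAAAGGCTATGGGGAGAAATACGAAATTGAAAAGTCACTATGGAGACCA
Rabgef1, plus strand, chr5:130186930-130187179: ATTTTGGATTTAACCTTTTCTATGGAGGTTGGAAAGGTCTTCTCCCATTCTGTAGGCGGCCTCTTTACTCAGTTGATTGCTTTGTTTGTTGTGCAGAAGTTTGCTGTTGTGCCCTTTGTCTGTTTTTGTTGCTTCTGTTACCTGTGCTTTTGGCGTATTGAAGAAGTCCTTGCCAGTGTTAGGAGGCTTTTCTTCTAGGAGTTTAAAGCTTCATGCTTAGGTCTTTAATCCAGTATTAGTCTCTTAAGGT

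The printed sequences run from 28.4% G or C before Olfr635 to 44.0% before Olfr1402, below the median of all starts. Those of Olfr635, Olfr668 (30.0%), Esp23 (33.6%) and Skint9 (38.0%) hold no CG dinucleotide, and those of Olfr607 (35.6%), Olfr1402 and Rabgef1 (40.8%) hold 2, 1 and 2. Esp23 encodes a peptide of a pheromone family, and Rabgef1 an exchange factor of endosomes. Skint9 encodes a member of a butyrophilin-like family expressed in skin and thymus. The stretch before Rsbn1, a gene named for a protein of round spermatids, has 41.2% G or C and 8 CG dinucleotides, the most of the printed set. The stretch before Ddx41, which fell short of the limit for printing, has 55.2% G or C and 18 CG dinucleotides. Both values are the highest of the 23 windows, and this G or C share stands above the median of all starts. The other protein-coding genes left unprinted ran from 25.6% before Olfr1047 to 35.6% before Olfr178. Over all 23 windows, the median was 35.6% G or C and 1 CG dinucleotide in the 250 bases before the start, against 52.4% and 6 over 31396 autosomal windows and 41.6% and 2 over 1008 windows in longer day 3 islands. The letters TATAAA, searched on both strands, occurred in 6 of 23 (26.1%), in 12.4% of all windows and in 252 of the 1008 in longer islands. The median base composition of these windows stood further from the average start than that of the longer islands' windows did. The TATAAA share stood beside that of the longer islands' windows. No interval was computed for either, and olfactory receptor genes had 30.4% of these windows against 14.8% in longer islands. The part of gene type in the difference was not tested.

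The islands at these starts were of ordinary depth. The island at Olfr607 held 101 reads, that at Olfr635 102 reads and that at Olfr668 99 reads, and the islands at Skint9 and Rsbn1 held 125 and 122 reads. Across islands of the same lengths, the median day 3 island held 100 reads at 1400 bp, 108 at 1600 bp and 116 at 1800 bp. None of the 21 islands holds a listed T cell gene start.

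Short islands were rare on day 0 and common on day 3. They made up 0.415% of the day 0 list (interval 0.335 to 0.515) and 5.88% of the day 3 list (5.67 to 6.09). Their number was 33.7 times as high on day 3, while that of all islands was 2.38 times as high. Together they spanned 0.138 Mb and 4.35 Mb, and held 0.211% and 2.87% of the reads in islands. All autosomal islands held 3400431 reads on day 0 and 10416275 on day 3, and the depth of the libraries is unknown. A day 3 list reduced to as many islands as day 0, those with the most reads, held 0 short islands. The cause of the difference in number between the days was not tested. The shortest autosomal day 0 island spanned 1000 bp, whereas 68 autosomal day 3 islands spanned 800 bp or less, down to 1 of 200 bp. All intervals here cover counting error only, because each day has 1 ChIP library. Those around read counts also treat reads as separate molecules, which amplified reads without a molecular identifier cannot be taken to be.

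Reads per kb were higher in short than in longer islands on both days. On day 0 the median was 51.7 reads per kb in short islands (quartiles 48.9 and 55.0, range 43.9 to 72.2) and 34.0 in islands of 2000 bp or more. On day 3 the medians were 68.1 (quartiles 64.4 and 73.6, range 49.4 to 235) and 52.4. The upper part of the short islands' range lies far above the median of the longer islands, and their lower end lies near it on day 3. Relative to the median of all islands of the same list, the median short island stood at 1.52 times on day 0 and 1.29 times on day 3. The counts were left unscaled for the depth of the library, and the ratio of the day 3 to the day 0 median was 1.32 for short islands and 1.54 for longer ones.

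**Figure D1:**
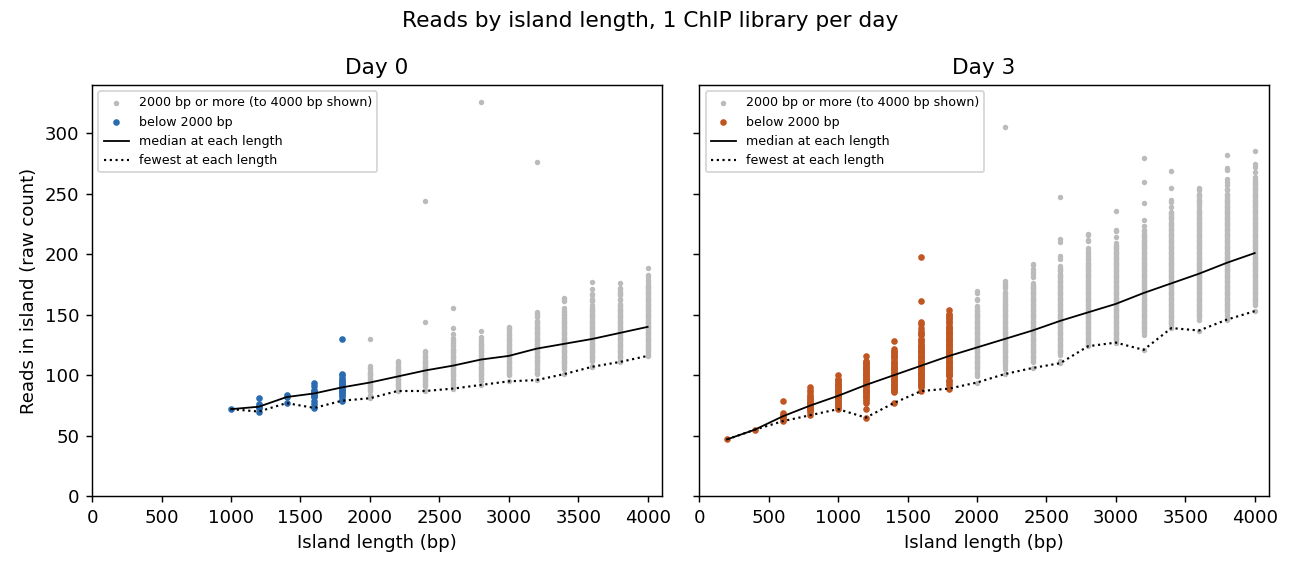
Raw reads in each island against its length in bp, for day 0 (left) and day 3 (right), with islands below 2000 bp coloured and longer ones grey up to 4000 bp. Lines give the median and the fewest reads at each length; on day 3 the fewest reads per island were 94 at 2000 bp and 62 at 600 bp, so that reads per kb were higher in shorter islands.

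Within the short islands, read counts changed less than length did. On day 0 the median island held 74 reads at 1200 bp (7 islands, 70 to 81 reads), 85 at 1600 bp (25 islands, 73 to 94) and 90 at 1800 bp (46 islands, 79 to 130). On day 3 it held 66 reads at 600 bp (10 islands, 62 to 79), 83 at 1000 bp (132 islands, 72 to 100) and 116 at 1800 bp (1092 islands, 89 to 154). The median density therefore ran from 110 reads per kb at 600 bp to 64.4 at 1800 bp on day 3. Islands of 2000 bp, just outside the limit, continued this course with a median of 94 reads on day 0 (85 islands) and 123 on day 3 (1498 islands), so 2000 bp is no break in the data.

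No short autosomal island reached 5 times the median reads per kb of its list on either day. No longer autosomal island did, so this limit called 0% of all autosomal islands. At 3 times, 1 short day 3 island and no short day 0 island remained, beside 0.0021% of all day 3 and 0.005% of all day 0 islands. At 2 times, a limit added after the data were seen, 2 of 83 short islands on day 0 (2.41%, interval 0.663 to 8.37) and 14 of 2794 on day 3 (0.501%, 0.299 to 0.839) remained. All islands gave 0.035% and 0.0315%, and longer islands 5 and 1. At 1.5 times the shares were 54.2% and 11.1% of short islands, 0.0754% and 0.0469% of longer ones, and 0.3% and 0.698% of all.

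The picture differed when length was held fixed. When each island was set against the median of islands of its own length in its list, 1 of 71 short day 0 islands (1.41%) and 17 of 2782 short day 3 islands (0.611%, interval 0.382 to 0.976) stood 25% or more above it. Among longer islands these shares were 0.430% on day 0 and 1.44% on day 3, and over all islands 0.434% and 1.39%. The longer islands' day 3 share lies above the interval of the short islands' share, and the day 0 share of short islands rests on 1 island. At 1.5 times the median of the same length, the day 3 order was the other way, on 1 short island. There 1 of 2782 short (0.0359%) and 12 of 44469 longer islands (0.0270%) remained, with 0.0275% over all. On day 0, 0 of 71 short and 7 of 19760 longer islands remained, with 0.0353% over all. Only lengths with at least 20 islands of that list entered these counts.

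On each day, the short autosomal island with the most reads for its length lay in a cluster of zinc finger genes on distal chromosome 4. On day 0 the island chr4:147408601-147410400 held 130 reads in 1800 bp (exact Poisson interval 109 to 154), or 72.2 reads per kb, where the median island of 1800 bp held 90. It overlapped no annotated gene, lay 16.6 kb from Zfp978, a zinc finger gene, and had no day 3 island over it. On day 3 the island chr4:146055401-146057000 held 198 reads in 1600 bp, 1.83 times the median of its length and 123.8 reads per kb. It was the short autosomal island with the most reads in either list. It lay 40.3 kb from Zfp987, and the day 0 island over it, chr4:146054401-146057000, held 129 reads at 49.6 reads per kb, or 1.46 times the day 0 list median.

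The window chr4:145000001-149000000 was chosen after these values were seen, as the whole megabases holding both islands and 1 more on each side. It holds 48 protein-coding genes, 16 of them with Zfp symbols. Of its 14 day 0 islands, 5 stood at 1.5 times the list median or more (35.7%, elsewhere on the autosomes 0.275%), and 2 of its 16 day 3 islands did (12.5%, elsewhere 0.694%). The choice of the window fixes part of these shares: without the 2 islands that placed it, 4 of 13 (30.8%) and 1 of 15 (6.67%) remained. Length enters them too, since reads per kb were higher in shorter islands. In the window 2 of 14 and 4 of 16 islands were short, elsewhere 81 of 19970 and 2790 of 47529. Against the median reads of their own length, the 5 day 0 islands stood at 1.0 to 2.26 times. The 2 day 3 islands stood at 1.08 and 1.83 times. The dense islands were not all short: chr4:146455001-146458200, which overlaps Zfp992, spanned 3200 bp on day 0 with 276 reads, at 86.3 reads per kb. A short day 3 island of 112 reads lay in Zfp993 (chr4:146925001-146926800) and 1 of 107 reads in Zfp982 (chr4:147509201-147510800), both near the median for their length. A short day 0 island, chr4:147094801-147096400 with 85 reads, lay inside the day 3 island chr4:147094201-147096400 with 120 reads.

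**Figure D2:**
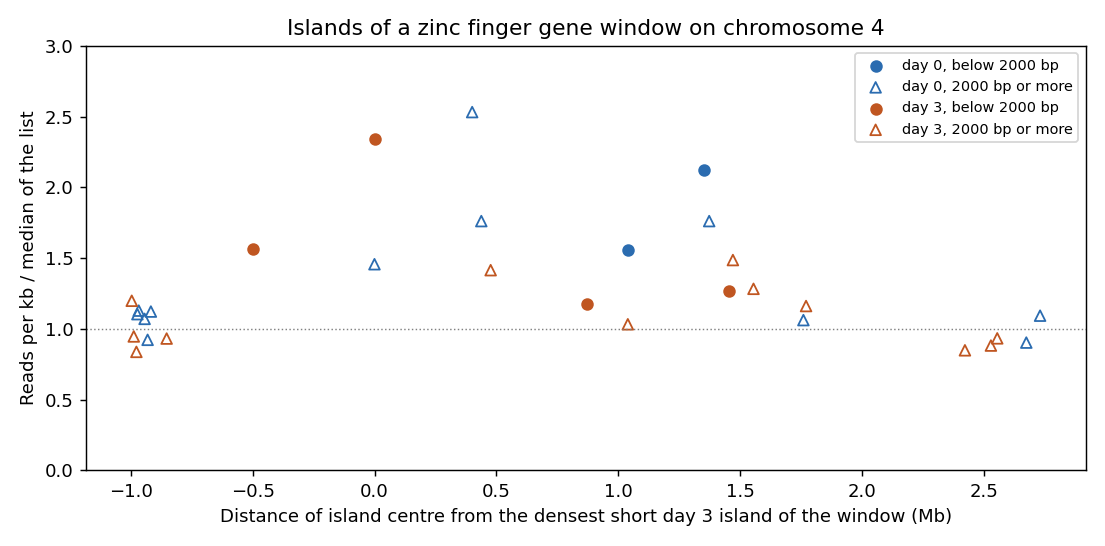
Density of every island in the chromosome 4 window, as a multiple of the median reads per kb of its own list, against the distance in Mb from the short day 3 island with 198 reads. Filled circles are islands below 2000 bp and open triangles longer ones; 2 filled points, 1 per day, stand above 2 times the list median, as does 1 longer day 0 island.

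By reads per kb alone, the leading day 3 islands were the shortest ones. The 200 bp island chr3:8246201-8246400 held 47 reads, which gives 235 reads per kb and 4.45 times the list median from a single 200 bp step. An island of 400 bp in Mrvi1, which encodes a substrate of cyclic GMP kinase at the inositol trisphosphate receptor, held 55 reads (chr7:110873001-110873400, 137.5 reads per kb). An island of 600 bp in Immp2l, a subunit gene of a peptidase of the inner mitochondrial membrane, held 79 reads (chr12:41868201-41868800, 131.7 reads per kb). Each of these counts rests on few reads: the interval around the 47 reads alone runs from 34.5 to 62.5. The rest of the 8 named by density were an island of 69 reads in Ccdc171 (115.0 reads per kb) and 3 islands of 600 to 800 bp at 110.0 to 112.5 reads per kb outside protein-coding genes, together with the chromosome 4 island. The last place was shared by 4 islands at 110.0 reads per kb, of which 2 lay in protein-coding genes, Cplane1 (66 reads in 600 bp) and Lekr1 (88 reads in 800 bp).

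On day 0 the next densest short islands followed the same order of length. The island chr5:57344801-57345800, the 1 autosomal day 0 island of 1000 bp, held 72 reads, 370 kb from Pcdh7, a protocadherin gene for cell adhesion. It lay inside a day 3 island, chr5:57344801-57347000, with 132 reads at 60.0 reads per kb. The island chr3:106168601-106169800 held 81 reads, 1.04 kb from Chil3, which encodes a chitinase-like protein secreted by macrophages. Further along that locus, longer day 3 islands at Chil4 were among the densest of their class, with 247 reads in chr3:106215201-106217800. Islands of 1200 bp with 73 to 76 reads lay in Fbxw4, a substrate receptor gene of a ubiquitin ligase, and near Mmp3, Dennd5b, Ahsa2 and Nmt2.

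Some gene-body islands stood out for their length on day 3. An island of 1600 bp in Asz1, a germline gene of the piRNA pathway, held 161 reads (chr6:18071201-18072800), 1.49 times the median of its length. An island in Tusc3, a subunit gene of the oligosaccharyltransferase, held 154 reads in 1800 bp, and 1 in Lrba, which encodes an anchor protein that preserves CTLA-4 in T cells, held 151. In Zfp459 an island of 1600 bp held 142 reads, and 1 lying 2.27 kb from Klrb1, a lectin-like receptor gene of natural killer cells, held 144. At the low end, islands of 1800 bp held 89 reads on chromosome 2 (chr2:78820601-78822400), 92 in the flippase gene Atp8b5 and 94 far from Gulp1, an engulfment adaptor gene. Among the lowest on day 0 were islands of 79 reads near B3gnt6 and 73 in the mitochondrial carrier gene Slc25a33. The densest island just above the limit, chr11:3100201-3102400 on day 3, held 305 reads in 2200 bp, and its day 0 counterpart of 2400 bp held 244 reads.

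Most short islands had no island over them on the other day. On day 0, 21 of 83 (25.3%, interval 17.2 to 35.6) were overlapped by at least 1 bp of a day 3 island, against 33.7% of longer islands and 33.6% of all. On day 3, 284 of 2794 (10.2%, 9.10 to 11.3) were overlapped by a day 0 island, against 15.1% of longer islands and 14.9% of all. A short island offers fewer bases to meet, and the share whose midpoint lay in an island of the other day differed less. By midpoint it was 20.5% of short and 22.3% of longer islands on day 0, with 22.3% over all, and 9.06% and 10.5% on day 3, with 10.4% over all. The interval around the short islands' midpoint share, 13.2 to 30.4%, holds the longer islands' share on day 0, while that of day 3, 8.05 to 10.2%, ends just below it.

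**Figure D3:**
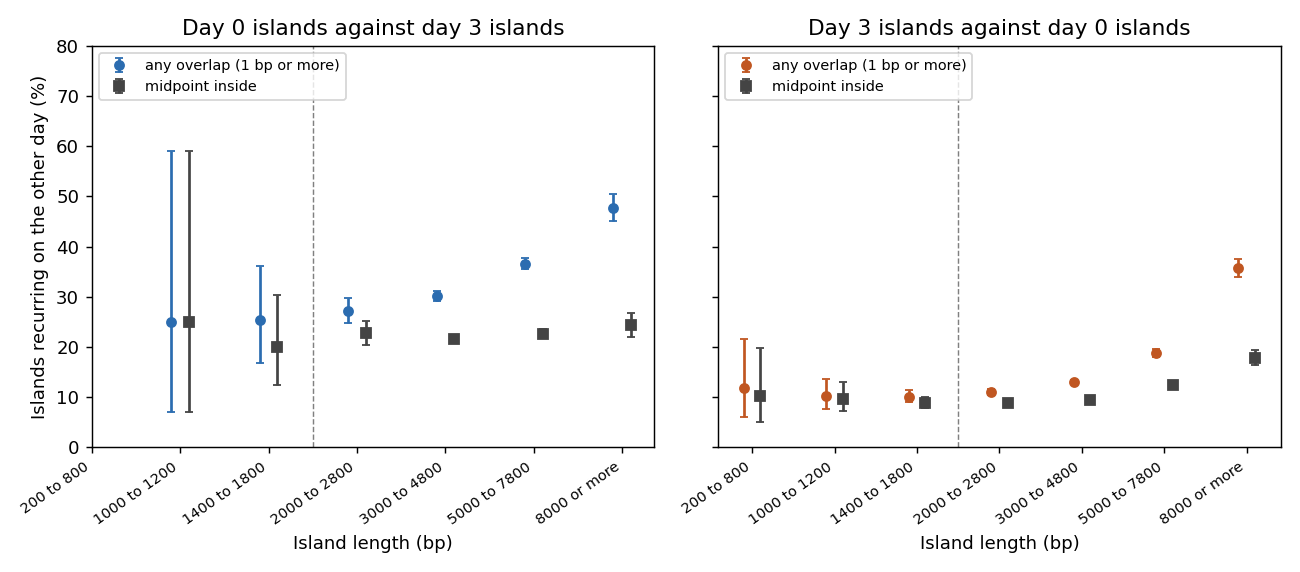
Percent of islands with an island of the other day over them, by length class in bp, for day 0 (left) and day 3 (right). Circles count any overlap, squares the midpoint, bars are 95% Wilson intervals, and the dashed line marks 2000 bp; on day 3, any-overlap shares were 10.1% at 1400 to 1800 bp and 35.7% at 8000 bp or more, and midpoint shares 8.91% and 17.9%.

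No short island was overlapped by a short island of the other day. None of the 83 on day 0 overlapped, or lay within 10 kb of, any of the 2794 on day 3, and within 50 kb 7 of 83 and 8 of 2794 had a short island of the other day. The shares of all islands at 10 and 50 kb were not computed, so whether these counts by distance are unusual cannot be told. Overlaps were rare for all islands: short day 3 islands overlapped 1.40% of all day 0 islands, and short day 0 islands 0.0442% of all day 3 islands. The 0 of 83 (interval 0 to 4.42%) and 0 of 2794 stand near these shares. Where a short island was met, the other day's island was longer and usually enclosed it. On day 0, 14 of the 21 lay wholly inside a day 3 island, and on day 3, 184 of the 284 lay wholly inside a day 0 island (66.7% and 64.8%). Of all overlapped islands 17.0% and 23.3% did, and of longer ones 16.9% and 21.6%, and a short island fits inside another more easily. The median length of these partners was 4200 bp (2200 to 14000) on day 3 and 5000 bp (2000 to 15800) on day 0.

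Densities in the pairs differed by day. In the 21 day 0 pairs, the median was 51.7 reads per kb in the short island and 53.9 in its day 3 partner. In the 284 day 3 pairs, it was 69.4 in the short island and 33.8 in its day 0 partner, a median ratio of 2.06 (quartiles 1.88 and 2.30). After each value was divided by its list median, the day 3 ratio was 1.32 and the day 0 ratio 1.49. The median of all short islands, with or without a partner, stood at 1.52 times its list median on day 0 and 1.29 times on day 3. The median partner of day 0 short islands stood at 1.02 times its own list median, and that of day 3 short islands at 0.992 times. The ratios thus restate the higher density of short islands and are no separate result about the pairs. At Phtf2 a short day 3 island of 62 reads (103 reads per kb) lay inside a day 0 island at 34.6 reads per kb, and 34.0 kb from Il15, which encodes a cytokine of memory CD8+ T cells, an island of 75 reads (93.8) lay inside one at 33.3. The 284 fell on 280 day 0 islands, 4 of which held 2 short day 3 islands each, among them islands in Cog5, a Golgi complex gene, and in Strbp, which encodes an RNA-binding protein of spermatids. In Cog5 both day 3 islands over the day 0 island were short, so 1 island of 3600 bp on day 0 stood where 2 separate ones were called on day 3.

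Short islands lay in protein-coding gene bodies about as often as longer ones on day 3. On day 3 the share overlapping a gene body was 44.2% (1236 of 2794, interval 42.4 to 46.1) for short and 45.8% for longer islands, with 45.7% over all. On day 0 it was 42.2% (35 of 83, 32.1 to 52.9) and 51.8%, with 51.7% over all. By midpoint the shares were 43.5% and 44.4% on day 3, and 39.8% and 49.5% on day 0. Gene bodies cover 40.0% of the autosomes, so the shares stand near or above that of the sequence itself. Islands outside every annotated gene made up 48.2% of short islands on day 0 and 48.4% on day 3, against 38.3% and 46.4% of longer ones.

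Genes that held short islands had long bodies, as genes with any island did. A short island lay in 35 of 20665 autosomal protein-coding genes on day 0 (0.169%) and in 1003 on day 3 (4.85%), while 24% and 28.7% of these genes held any island. Their median body length was 91.7 kb on day 0 and 120 kb on day 3, against 17.5 kb over all genes, 68.8 and 58.1 kb over genes with any island, and 68.6 and 50.5 kb over genes with longer islands only. For 11 genes on day 0 and 155 on day 3, short islands were the only ones present. On day 3, 181 genes held at least 2 short islands, and on day 0 none did. The most were 7 each in Pde4d, a cyclic AMP phosphodiesterase gene (7 of its 59 islands, 66.3 to 83.0 reads per kb), and Cntnap2, a neuronal adhesion gene of the neurexin family (7 of 71, 59.4 to 93.3). Rsrc1, which encodes a splicing-related protein with arginine-serine repeats, held 6 among 27 islands, and Csmd3, the histone deacetylase gene Hdac9, Galntl6, Psd3, Fgf14 and Immp2l held 5 each. Relative to its own islands Rsrc1 had the highest share of these 10 genes, 22.2%, and Lrba, with 4 of 48, the lowest, 8.33%. Short islands made up 5.88% of the whole day 3 list, and these genes were picked for holding the most, which raises their shares.

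Of the 35 genes with a short island on day 0, 3 also held a short island on day 3, at different places. Over all protein-coding genes 4.85% held a short day 3 island, and whether the 3 exceed that share was not tested. Magi3, which encodes a scaffold at cell junctions, held 1 of 93 reads on day 0 (51.7 reads per kb) and 1 of 118 on day 3 (65.6). Olfm3, which encodes a secreted olfactomedin protein, held 1 of 91 reads on day 0 and 2 with 231 reads together on day 3. Pcdh7 held 1 of 94 reads on day 0 and 1 of 112 on day 3. The gene bodies span 207 to 417 kb and held 2 to 12 islands on day 0 and 16 to 28 on day 3.

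Few genes of the 12 gene lists, which were chosen with earlier results of these data known, held a short island. Of 211 listed autosomal genes, 1 did on day 0 (0.474%) and 12 did on day 3 (5.69%), beside 0.169% and 4.85% of all protein-coding genes. The day 0 gene was Bub1, a kinase gene of the spindle checkpoint, with 92 reads in 1800 bp, the only island of its body on that day. None of the genes of T cell identity (14), B cells (12), myeloid cells (14), the H3K9 methylation machinery (18) or housekeeping (16) held 1 on either day.

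Of the 89 autosomal genes in the 5 T cell lists, 6 held a short island on day 3 (6.74%), near the 4.85% of all protein-coding genes. Il2ra, the alpha chain gene of the interleukin-2 receptor that activated T cells induce, held 90 reads in 1200 bp (chr2:11644201-11645400, interval 72.4 to 111), the only island of its body. Il12rb2, a receptor chain gene for interleukin-12, held 92 reads in 1600 bp, and Il23r, a receptor gene for interleukin-23, held 109 in 1800 bp. Bcl2, a survival gene, held 122 reads in 1800 bp (67.8 reads per kb) over a day 0 island at 26.1. Tox, a transcription factor gene of exhausted cells, held 2 of its 20 islands as short ones, with 81 reads in 1000 bp and 117 in 1800 bp. Ikzf2, which encodes Helios, held 123 reads in 1800 bp. All of these stood between 0.852 and 1.06 times the median reads for their length, so none was dense for its size.

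Of the 15 autosomal germline genes, 8 held any island on day 3 (53.3%) and 4 a short one (26.7%), where 28.7% and 4.85% of all protein-coding genes did. These were Mael and Asz1 of the piRNA pathway, and Sycp1 and Sycp3 of the synaptonemal complex, which pairs chromosomes in meiosis. Mael held 109 reads in 1600 bp, Sycp3 110 in 1800 bp and Sycp1 87 in 1000 bp. Asz1 held a short island of 89 reads in 1200 bp beside that of 161 reads. Only the larger Asz1 island was high for its length. The germline share rests on 4 genes, from a list chosen with earlier results of these data known, and was not tested. Of 31 imprinted genes, 10 held any island and 2 a short one (6.45%). Rian, a long noncoding RNA gene of the Dlk1 to Dio3 domain, held 116 reads in 1400 bp and Inpp5f, a phosphoinositide phosphatase gene, held 120 in 1800 bp and 100 in 1400 bp.

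Gene families differed in how many members held a short day 3 island. Zfp zinc finger genes had 21 of 408 (5.15%), near the 4.85% of all genes, with Zfp735 (75 reads in 800 bp) and Zfp277 (111 and 122 reads in 1400 bp each) next to Zfp459. Olfactory receptor genes had 5 of 1122 (0.446%), although 16.0% of them held any island, and their bodies are short. The densest of the 5 was in Olfr351, with 91 reads in 1200 bp. Vomeronasal receptor 2 genes, for pheromone detection, had 6 of 127 (4.72%), Cyp2 genes, for metabolism of drugs and steroids, 3 of 59, and Skint genes 2 of 11. The clustered protocadherins had 21 of 56, from only 4 islands, since their gene bodies overlap. On day 0 no member of these families held 1, where only 0.169% of all protein-coding genes did.

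Short islands were placed among their neighbours much as longer islands were. An island of the same list lay within 10 kb of 1544 of 2794 short day 3 islands (55.3%, interval 53.4 to 57.1), against 54.2% of longer ones and 54.3% of all. On day 0 this held for 19 of 83 (22.9%, 15.2 to 33.0), against 27.1% and 27% of all. The median gap was 8.4 kb for short and 8.6 kb for longer islands on day 3, and 27.2 and 25.6 kb on day 0. The day 3 list also holds 2.38 times as many islands, and the cause of the difference between days was not tested. The nearest neighbour was itself short for 5.98% of short and 5.93% of longer day 3 islands, near the 5.88% that short islands make up. Short day 3 islands thus had short neighbours about as often as their number in the list gives, and on day 0 the nearest neighbour was short for 1 of 83.

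**Figure D4:**
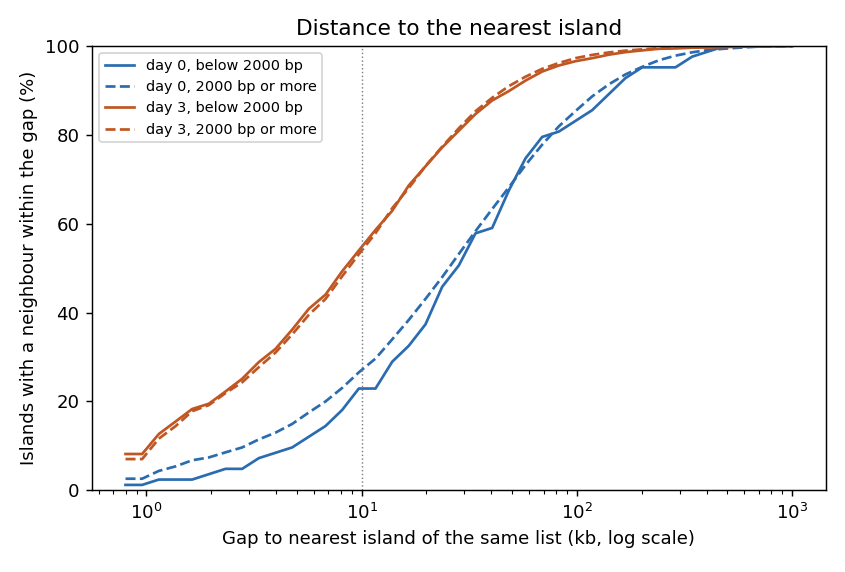
Percent of islands with another island of the same list within a given gap (kb, log scale), for short islands (solid lines) and islands of 2000 bp or more (dashed), with a dotted line at 10 kb. The day 3 curves run together, reaching 55.3% and 54.2% at 10 kb, and the day 0 short curve lies below the dashed one there, at 22.9% against 27.1%.

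Runs of islands with gaps of at most 10 kb rarely held several short islands. On day 3, 2586 runs held 1 short island, 95 held 2 and 6 held 3, and on day 0 no run held more than 1. Runs with 3 lay at Olfr459 (chr6:41752401-41789000, 6 islands), in Spidr, a gene of homologous recombination, in Rsrc1, in Pdlim5 and across Usp34, a ubiquitin protease gene, where 13 islands spanned 97.4 kb. The other lay 23.5 kb from Rgs21 (chr1:144591201-144722200, 14 islands). In all 6 the short islands stood beside longer ones, and the longest island of a run spanned 4200 to 14000 bp. By whole megabase, the most short day 3 islands were 10, of 63 islands, at chr1:144000001-145000000, which holds Rgs1, Rgs2, Rgs13, Rgs18 and Rgs21, genes for regulators of G protein signalling. A second megabase, on chromosome 18, had 10 of 73. Both were picked for the highest counts, and short islands made up 5.88% of the whole day 3 list. Across chromosomes the short share of the day 3 list ran from 4.79% on chromosome 19 to 6.65% on chromosome 3.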

How the data were processed

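H3K9me3 native ChIP-seq islands were taken from 1 ChIP library per day. Bowtie2, SICER version 1.1 and the build mm10 are named per the submitters' processing notes. The significance threshold, gap size, duplicate handling, use of input and mapped reads per library were not given in the sources used here. Each deposited island carries 1 unnamed whole number, read here as the authors' raw read count, without scaling for depth or length. Autosomal islands held 3400431 reads on day 0 and 10416275 on day 3. Borders fall on steps of 200 bp, and neighbours stand at least 800 bp apart.

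Islands were converted to 1-based coordinates. Reads per kb, multiples of the list median, overlaps, edge-to-edge gaps and runs were computed with Python 3.11.15, pandas 2.3.3, numpy 2.4.6 and scipy 1.17.1, figures with matplotlib 3.10.9, and the overlap and gap code was tested on simulated islands. Gene bodies and promoter windows came from RefSeq tables of GRCm38.p6 (the assembly behind mm10), without exons or repeats. Shares carry 95% Wilson intervals and read counts exact 95% Poisson intervals. No test was made, since each day has 1 library and length is a measured value. The members, 12 gene lists (218 of 219 symbols found) and 15 families by symbol were chosen with earlier results of these data known.

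Named islands were, per day, the 8 with the most and 3 with the fewest reads per kb and the 5 runs with the most short islands (6 on day 3, with the tied run). Named genes were the 10 with the most short islands per day (2 or more), each listed gene holding one, and the 3 family members with the densest one. Predicted genes were left out of the names. Islands dense for their length, at gene starts, in pairs or just above the limit were named after their values were seen. Alternatives varied the length limit, the islands kept, the chromosomes, the density limit, the overlap, the gene margin and the gap.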

Additional observations from a re-analysis of the deposited data

Results flagged for a closer look

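Short islands also stood off the autosomes, in data that the comparisons above do not use. On day 0, chrX:169982201-169983200, in Mid1, a ubiquitin ligase gene at the border of the pseudoautosomal region, held 211 reads in 1000 bp, 6.19 times the autosomal day 0 median of reads per kb. On day 0, chrY:258801-259400 held 99 reads in 600 bp. On the mitochondrial chromosome, chrM:11001-12600 held 147 reads on day 0 and chrM:15201-16200 held 302 reads on day 3. The inputs were not analysed here, so these counts stand without a background level.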

How the results depend on the processing

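No paired analysis was possible because each day has 1 ChIP library and no replicate number is shared. Of 101 alternative values, 69 stayed within the interval of the reported value (counts within 1.5 times), and 32 did not. Part of the 69 could not differ, so their number is no measure of stability. No autosomal island reached 5 times the list median, so leaving such islands out changed nothing. Reducing the day 3 list leaves the day 0 values other than recurrence as they are. Below 1600 bp and below 2400 bp, the short share was 0.0600% and 1.58% on day 0 and 1.98% and 13.0% on day 3, and the median 60.8 and 46.5 reads per kb on day 0 and 75.7 and 63.5 on day 3. Below 1600 bp, 47.7% of day 3 short islands lay in gene bodies, and 0 listed genes on day 0 and 6 on day 3 held one. With only islands of at least their list's median reads per kb, 83 and 2789 short islands remained: the short share was 0.830% and 11.7%, recurrence 15.7% and 4.80%, and a neighbour within 10 kb was present for 13.3% and 34.7%. With the day 3 list reduced to as many islands as day 0, those with the most reads, it held 0 short islands (0%) and 0 listed genes with one, since its fewest reads were 204 and no short island held over 198; other day 3 values could not be had, and day 0 recurrence was 13.3%. Day 3 recurrence was 9.09% with 50% of the island overlapped, 9.06% by midpoint and 14.2% within 2 kb, and 0% on day 0 and 0% on day 3 where the other island had to be short. With 5 kb added to gene bodies the genic share was 59.0% and 49.1%. For gaps of 5 and 50 kb the neighbour share was 12.0% and 71.1% on day 0 and 38.4% and 90.4% on day 3. At 2 times the list median, 0.501% of short day 3 islands counted as extreme. Apart from the values that the alternatives' own construction sets, the cause of these shifts was not tested. Depth of the libraries is unknown, and whether the fewest reads per island limit how short an island can be called was not tested. A region missing from a list may still carry the mark below the authors' threshold.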
